A study of Mus musculus with 10 samples.

Results

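The 9 genes described here encode ligands and receptors of the IL10 and IL22 cytokine axis. They are Il10, Il10ra, Il10rb, Il22, Il22ra1, Il22ra2, Il19, Il20rb and Il24, and they were chosen by gene name from the 54532 genes of the expression table. Spleens of 5 DUSP6 KO mice and 5 wild-type (WT) mice with KRN serum-induced arthritis (KSIA) were compared by RNA sequencing, with 1 library per mouse. DUSP6 is a phosphatase that inactivates the MAP kinase ERK. The DUSP6 KO mice, which the labels call a knockdown and the sample names HOM, carried the Dusp6tm1Jmol allele and the WT mice were C57BL/6J, so any other difference between the purchased lines cannot be told apart from the deletion. Mice of 8 to 12 weeks of age in both groups received 100 µL of serum from arthritic mice by intraperitoneal injection on days 0 and 2, and spleens were taken at day 9. There was no group without serum. The labels name male and female mice without giving the sex of each, and all 10 libraries had the male pattern, with Xist at most 0.0206 FPKM and Ddx3y at least 14.4 FPKM. FPKM is the number of fragments per kilobase of gene and per 1000000 fragments of the library.

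IL10 is an anti-inflammatory cytokine made by regulatory T cells, B cells and macrophages. It binds a receptor of IL10RA, which recognises the ligand, and IL10RB, which IL10 shares with IL22 and the lambda interferons, and it signals through JAK1, TYK2 and STAT3. IL22 is made by innate lymphoid cells and T helper 17 cells and acts on epithelia, where IL22RA1 pairs with IL10RB. IL22RA2, also called IL22 binding protein, is a soluble receptor that captures IL22 and keeps it from its membrane receptor, and in lymphoid tissue it is known as a product of dendritic cells. IL19 and IL24 belong to the IL20 branch of the family, whose receptors contain IL20RB.

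The coding start of Il22ra2, the only one of the 6 tested genes that passed the test, is shown first. It is taken from GENCODE release 21 (GRCm38), plus strand, coding bases 1 to 150, spliced from 2 exons between chr10:19622040-19624492, with the start codon in capitals.

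Il22ra2: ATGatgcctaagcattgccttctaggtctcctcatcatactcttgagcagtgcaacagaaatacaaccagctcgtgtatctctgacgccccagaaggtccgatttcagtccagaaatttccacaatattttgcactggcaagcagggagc

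Il22 is shown beside Iltifb, the additional copy of the Il22 gene on the same chromosome, because similarity between the copies bears on how reads of the ligand can be counted. The stretches are coding bases 98 to 217 of each gene, counted from the start codon and spliced from exons between chr10:118205088-118205600 on the plus strand for Il22 and chr10:118294380-118294892 on the minus strand for Iltifb. Capitals mark the 5 bases that differ in this stretch.

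Il22: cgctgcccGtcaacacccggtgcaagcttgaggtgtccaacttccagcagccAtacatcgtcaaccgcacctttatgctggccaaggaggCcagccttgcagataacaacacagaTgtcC

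Iltifb: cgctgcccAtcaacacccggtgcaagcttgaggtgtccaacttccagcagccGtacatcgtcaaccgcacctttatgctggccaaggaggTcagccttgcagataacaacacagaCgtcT

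Over all 537 coding bases the copies differed at 9 positions (98.3% identity), and the longest run without a difference was 215 bases, from coding base 259 to 473. A read that lies within such a run cannot be assigned to either gene.

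Read counts could be recovered from the FPKM values, and they summed to between 14990474 and 19822673 per DUSP6 KO library and between 15611652 and 18422147 per WT library. The deleted gene, Dusp6, was covered by 16 to 38 reads per DUSP6 KO library against 866 to 1434 per WT library. Of the 21296 genes averaging 0.1 FPKM or more, 15 had an adjusted p of 0.05 or less in limma (Benjamini-Hochberg adjustment over all genes tested), which is 0.0704% of the genes tested. Library WT 67 stood apart in exocrine pancreas genes, with a summed level of 12668 FPKM over 6 markers against 0.166 to 151 FPKM in the other WT libraries and 0.0612 to 0.452 FPKM in the DUSP6 KO libraries. B cell markers, at 616 to 1564 FPKM in sum, and T cell markers, at 108 to 218 FPKM, were present in every library.

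Of the 9 genes, 6 passed the filter of 0.1 FPKM. One of these 6, Il22ra2, had an adjusted p of 0.05 or less, against a background of 0.0704%. The groups did not overlap for 1 of the 6, again Il22ra2, where this was true of 1.11% of all genes tested. Il22ra1 had a mean of 0.0933 FPKM, just under the filter, and Il22 and Il19 had no read in any library.

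**Figure D1:**
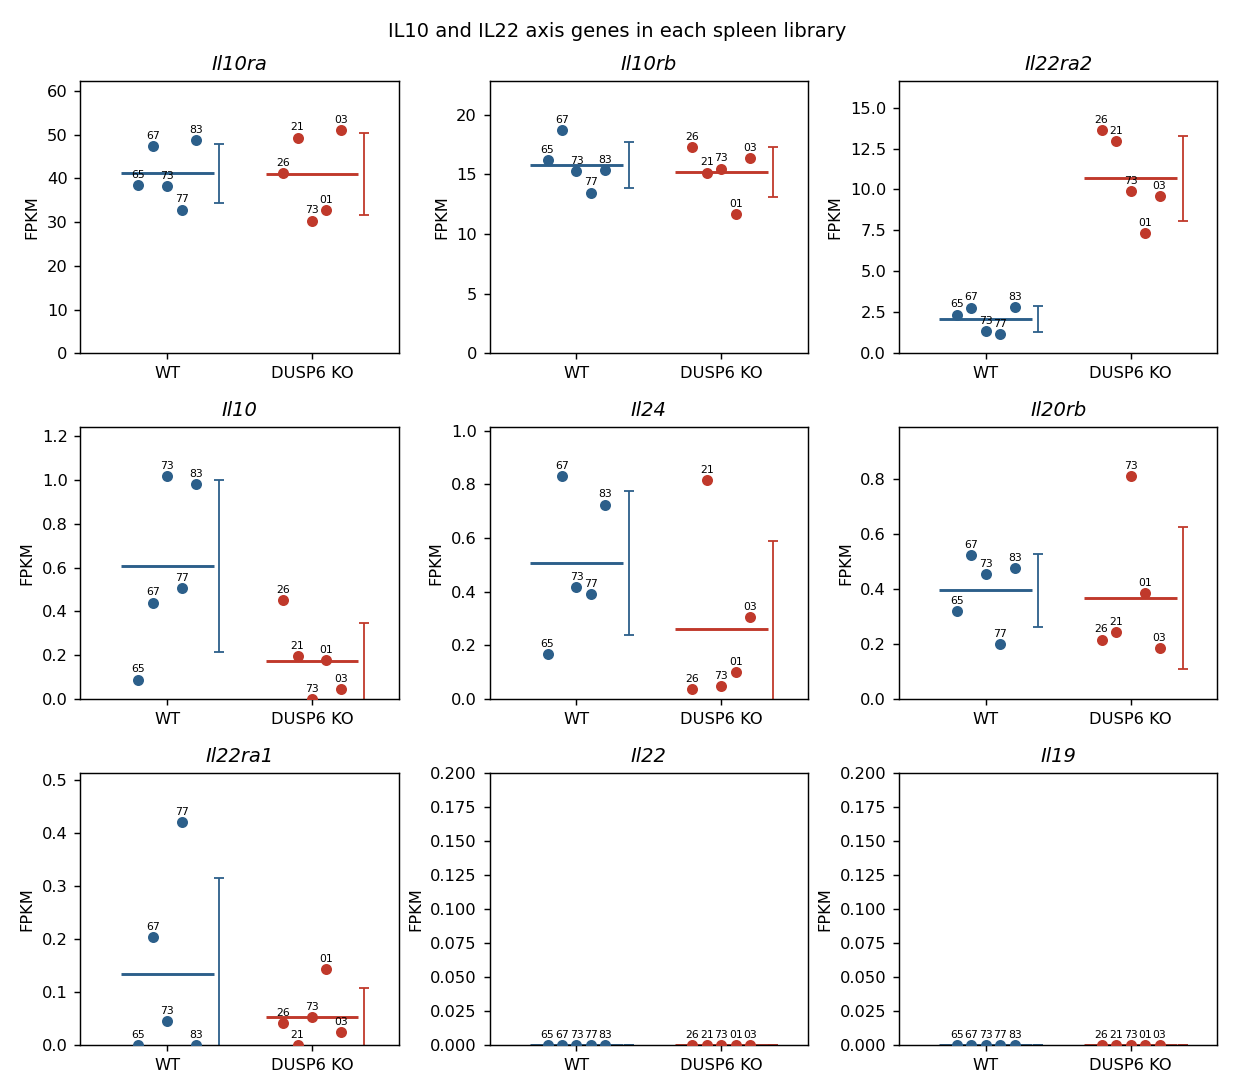
FPKM (vertical axes, each starting at 0) of the 9 genes in the 5 WT (blue) and 5 DUSP6 KO (red) spleen libraries, with the replicate number above each point. Horizontal lines are group means and bars at the side are 1 SD either way, with any portion below 0 not drawn. All 5 DUSP6 KO points of Il22ra2 (7.32 to 13.6 FPKM) sit above all 5 WT points (1.18 to 2.84 FPKM), the groups overlap for the other 6 genes with reads, and Il22 and Il19 are at 0.

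The decoy receptor gene of the IL22 system rose in DUSP6 KO spleens, while the ligand was not detected and the signalling receptor chain was near the limit of detection. Il22ra2 (ENSMUSG00000039760) lies on the plus strand of chromosome 10, and its annotated transcript has 5 exons and 690 coding bases. The DUSP6 KO replicates 26, 21, 73, 01 and 03 were at 13.6, 13.0, 9.89, 7.32 and 9.58 FPKM. In WT replicates 65, 67, 73, 77 and 83 it was at 2.36, 2.79, 1.37, 1.18 and 2.84 FPKM. Every DUSP6 KO library was therefore above every WT library, and the nearest pair was DUSP6 KO 01 and WT 83. These values rest on 362 to 635 reads per DUSP6 KO library and on 49 to 133 per WT library. The log2 fold change was 2.33 (standard error 0.27), which corresponds to 5.04-fold with a 95% confidence interval of 3.34 to 7.62 (limma adjusted p = 0.0090). The two-sided exact permutation test of mean FPKM gave p = 0.0079, the smallest value that 5 against 5 libraries allow, among 7 such tests, 1 for each gene with a read. Without WT 67 the log2 fold change was 2.45 (limma adjusted p = 0.0096).

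Il22 (ENSMUSG00000074695) had 0 reads in all 10 libraries. A count of 0 allows up to 3 reads per library, equal to 0.125 to 0.184 FPKM depending on the library, so Il22 was not detectable at this depth in either group. Its copy Iltifb (ENSMUSG00000090461) also had 0 reads in all 10 libraries. Whether reads that matched both copies were discarded in counting was not tested.

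Il22ra1 (ENSMUSG00000037157), the chain that gives epithelial cells their response to IL22, had 2, 0, 2, 8 and 1 reads in DUSP6 KO replicates 26, 21, 73, 01 and 03. In WT replicates 65, 67, 73, 77 and 83 it had 0, 10, 2, 18 and 0 reads. Most reads came from WT 77, WT 67 and DUSP6 KO 01, and the groups overlapped (exact permutation test of mean FPKM, two-sided p = 0.42). The 6 epithelial markers summed to 3.21 to 5.20 FPKM in DUSP6 KO against 3.73 to 8.68 FPKM in WT libraries, and WT 67, one of the libraries with reads of Il22ra1, held the highest sum. The mesothelium markers were highest in WT 77, at 12.4 FPKM against 2.43 to 5.85 FPKM in the other libraries. The part of such tissue in the reads of Il22ra1 was not tested.

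Cells that could carry Il22ra2 were examined through their marker genes. The 12 markers of conventional dendritic cells all passed the filter, none passed the test, and none had an unadjusted p under 0.05, with log2 fold changes from -0.29 to 0.29. Their summed level was 167 to 239 FPKM in DUSP6 KO against 150 to 219 FPKM in WT libraries. Among them, Flt3, the receptor that maintains dendritic cells, was at 6.46 ± 1.02 FPKM in DUSP6 KO against 7.91 ± 1.30 in WT (SD, n = 5 each), and Zbtb46, a transcription factor of these cells, at 4.82 ± 0.70 and 4.23 ± 0.34 FPKM. Sirpa and Dtx1, which other splenic cells also express, made up 40.2% and 22.5% of the mean sum in DUSP6 KO. Il22ra2 was also taken per 100 FPKM of these markers in the same library. It stood at 4.39 to 7.09 FPKM in DUSP6 KO against 0.767 to 1.53 FPKM in WT. This is a description only, since the marker sums vary too little to bring the groups together. The separation was not particular to dendritic cell markers. Per 100 FPKM of marginal zone macrophage markers, Il22ra2 stood at 4.67 to 10.04 FPKM in DUSP6 KO and 1.18 to 2.32 in WT. Ratios to stromal and to red pulp macrophage markers also kept the groups apart. In whole spleen, more cells of a type and more RNA per cell cannot be told apart.

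The summed markers of marginal zone macrophages separated the groups by a narrow margin. The 4 genes summed to 136 to 208 FPKM in DUSP6 KO against 100.1 to 135 FPKM in WT libraries. The nearest pair was DUSP6 KO 26 (135.6 FPKM) and WT 67 (134.9 FPKM). Of the 14 marker lists, no other had sums without overlap. Marco alone made up 66.5% of the mean sum in DUSP6 KO and 62.2% in WT. None of the 4 passed the limma test. The authors' own test, DESeq2, gave Marco and Cd209b as significantly higher in DUSP6 KO. Marco, a scavenger receptor of these cells, was at 120 ± 27.3 FPKM in DUSP6 KO against 71.6 ± 8.85 in WT (SD, n = 5 each, limma adjusted p = 0.34), and Cd209b, a lectin receptor, at 19.2 ± 5.63 and 10.2 ± 1.99 FPKM (limma adjusted p = 0.36). The part of marginal zone macrophages in the level of Il22ra2 was not tested. Markers of follicular and reticular stroma overlapped between the groups, at 192 to 502 FPKM in DUSP6 KO against 216 to 408 FPKM in WT libraries. Of the 11 tested entries for these 9 genes, 7 were higher and 4 lower in DUSP6 KO. Of these, Tlx1, a transcription factor of splenic stroma, was at 19.2 ± 3.75 and 12.8 ± 2.10 FPKM (limma adjusted p = 0.46), and Cxcl13, the chemokine of B cell follicles, at 144 ± 33.9 and 130 ± 22.04 FPKM (limma adjusted p = 0.99). The markers of red pulp macrophages also overlapped, at 223 to 393 FPKM in DUSP6 KO against 277 to 309 FPKM in WT libraries. Of these 5 genes, 2 were higher and 3 lower in DUSP6 KO, with log2 fold changes from -0.50 to 0.38. Adgre1, which encodes the F4/80 antigen and was among the higher, was at 46.8 ± 8.52 and 35.6 ± 2.18 FPKM (limma adjusted p = 0.59).

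**Figure D2:**
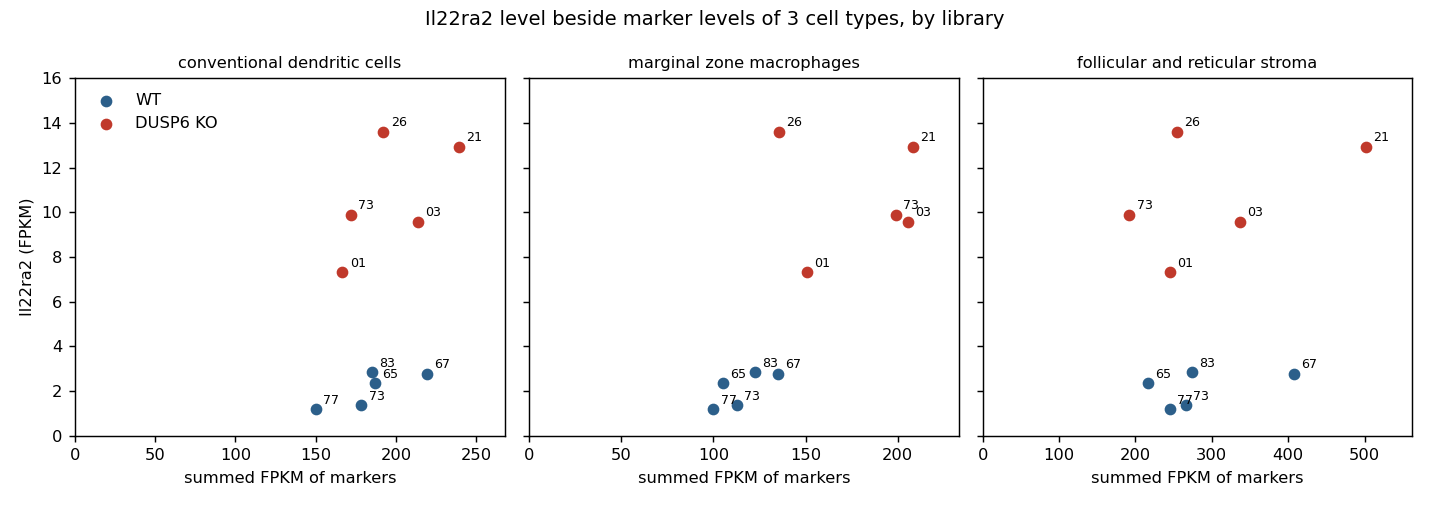
Il22ra2 (vertical axis, FPKM) against the summed FPKM of the markers of conventional dendritic cells, marginal zone macrophages and follicular and reticular stroma (horizontal axes), 1 point per library with its replicate number. The dendritic cell sums of both groups cover a similar range (150 to 239 FPKM) while Il22ra2 separates the groups. The marginal zone macrophage sums separate them narrowly (100.1 to 135 FPKM in WT against 136 to 208 FPKM in DUSP6 KO).

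In the IL10 system the ligand was scarce and both receptor chains were abundant, and none of the 3 genes passed the test. Il10 (ENSMUSG00000016529, chr1:131019845-131024974, plus strand) had 11, 5, 0, 5 and 1 reads in DUSP6 KO replicates 26, 21, 73, 01 and 03. These reads equal 0.450, 0.196, 0, 0.176 and 0.0460 FPKM. In WT replicates 65, 67, 73, 77 and 83 it had 2, 11, 23, 11 and 23 reads, or 0.0893, 0.440, 1.02, 0.505 and 0.980 FPKM. Each of the 5 DUSP6 KO libraries lay below the WT median, but the groups overlapped, since WT 65 held 2 reads and DUSP6 KO 26 held 11. In total 22 reads were counted in DUSP6 KO and 70 in WT. The log2 fold change was -1.37 with a 95% confidence interval of -2.65 to -0.08 and an unadjusted limma p of 0.040, which became 0.84 after adjustment over all genes tested. Among the 6 members Il10 and Il22ra2 had an unadjusted p under 0.05, as did 5.66% of all genes tested. The two-sided exact permutation test of mean FPKM for Il10 gave p = 0.071, and on reads per 1000000 reads this p was 0.032 without WT 65, 0.048 without DUSP6 KO 26 and up to 0.14 without another library. Adding a constant understates changes of low genes, and the size of the Il10 difference depended on the constant added before the logarithm, at -0.43 with 1 FPKM and -2.24 with 0.01 FPKM. The authors measured more IL10 protein in the serum of DUSP6 KO mice and counted more IL10-positive spleen cells by flow cytometry. In their double KO mice, loss of IL10 reversed the protection from arthritis. The Il10 reads in spleen, which did not pass the test, ran in the other direction. The reason was not tested.

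Il10ra (ENSMUSG00000032089, chr9:45253837-45269149, minus strand) was the most highly expressed of the 9 genes. The DUSP6 KO replicates 26, 21, 73, 01 and 03 were at 41.2, 49.4, 30.3, 32.8 and 51.1 FPKM. The WT replicates 65, 67, 73, 77 and 83 were at 38.5, 47.4, 38.3, 32.9 and 48.8 FPKM. The groups covered nearly the same range, and the log2 fold change of -0.02 (95% confidence interval -0.39 to 0.35) did not pass the test (limma adjusted p = 0.998). On the fold scale this 95% confidence interval ran from 0.761 to 1.27. The gene body overlaps the pseudogene Gm20612 on the opposite strand, with 124 reads over all libraries, and the microRNA gene Mir7086 on the same strand, with 15 reads. The sources used here do not give the strand setting of the counting, so reads of Gm20612 cannot be told apart from those of Il10ra. Mir7086 lies on the strand of Il10ra, where no strand setting could separate their reads.

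Il10rb (ENSMUSG00000022969, chr16:91406164-91425834, plus strand), the chain shared by both receptors, measured 17.3, 15.2, 15.48, 11.7 and 16.4 FPKM across DUSP6 KO replicates 26, 21, 73, 01 and 03. In WT replicates 65, 67, 73, 77 and 83 it was at 16.2, 18.7, 15.3, 13.5 and 15.3 FPKM. It had the smallest spread of the 7 genes with reads, with an SD of 14.0% of the mean in DUSP6 KO and 12.1% in WT. The groups overlapped, and the log2 fold change was -0.06 (95% confidence interval -0.32 to 0.20, limma adjusted p = 0.99). Its transcript shares 572 identical bases with Gm21970, an overlapping gene on the same strand that was at 0 in every library, so reads from that stretch may be missing from the count of Il10rb.

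Within a library, Il10ra stood 1.96 to 3.26 times as high as Il10rb in DUSP6 KO and 2.37 to 3.18 times in WT, per length (exact permutation test of the ratio, two-sided p = 0.73). Il22ra2 stood at 0.586 to 0.855 of the level of Il10rb in DUSP6 KO and 0.0876 to 0.185 in WT.

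The genes of the IL20 branch were low or undetected. Il19 (ENSMUSG00000016524) had 0 reads in all 10 libraries, which allows up to 0.121 to 0.178 FPKM per library. Il24 (ENSMUSG00000026420, chr1:130882074-130887454, minus strand), which encodes a cytokine of skin and activated immune cells, had 1, 22, 1, 3 and 7 reads in DUSP6 KO replicates 26, 21, 73, 01 and 03, and 4, 22, 10, 9 and 18 reads in WT replicates 65, 67, 73, 77 and 83. As levels these were 0.0387 to 0.816 FPKM in DUSP6 KO (median 0.0999) and 0.169 to 0.831 FPKM in WT (median 0.418). The DUSP6 KO libraries 26, 73 and 01 were below every WT library, but DUSP6 KO 21 matched the highest WT count. The log2 fold change was -1.02 with a 95% confidence interval of -2.26 to 0.22 (limma adjusted p = 0.94), and the exact permutation test of mean FPKM gave a two-sided p of 0.20. Without DUSP6 KO 21 the permutation test on reads per 1000000 reads gave p = 0.032.

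Il20rb (ENSMUSG00000044244, chr9:100457719-100486788, minus strand), the receptor chain for IL19 and IL24, measured 0.217, 0.245, 0.811, 0.384 and 0.186 FPKM across DUSP6 KO replicates 26, 21, 73, 01 and 03. In WT replicates 65, 67, 73, 77 and 83 it was at 0.320, 0.523, 0.455, 0.2002 and 0.478 FPKM. DUSP6 KO 73 was the highest of the 10 libraries and the other DUSP6 KO libraries lay within or below the WT range. The log2 fold change was -0.17 (95% confidence interval -0.97 to 0.63, limma adjusted p = 0.99), with 13 to 50 reads per library in DUSP6 KO and 14 to 42 in WT.

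Ordered by mean FPKM, a level per length, the 3 receptor genes Il10ra, Il10rb and Il22ra2 led in both groups. In WT, Il10ra (41.2 FPKM), Il10rb (15.8) and Il22ra2 (2.11) had ranges that did not overlap with their neighbours in the order. In DUSP6 KO the range of Il22ra2 (7.32 to 13.6 FPKM) reached that of Il10rb (11.7 to 17.3 FPKM), so these neighbours were not separated beyond their spread. Il10, Il24, Il20rb and Il22ra1 followed in WT, at means of 0.606, 0.507, 0.395 and 0.134 FPKM. In DUSP6 KO the order was Il20rb, Il24, Il10 and Il22ra1, at 0.369, 0.262, 0.174 and 0.0524 FPKM. The ranges of neighbours among these 4 genes overlapped in both groups.

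Among the other members of the IL10 family, Il20, Ifnl2 and Ifnl3 had 0 reads in every library, as had Iltifb. Il20ra, the partner of IL20RB, had 0 to 5 reads per library in DUSP6 KO and 0 to 8 in WT. Ifnlr1, the lambda interferon receptor chain that pairs with IL10RB, was the only one of these 6 genes to pass the filter, at 0.565 ± 0.264 FPKM in DUSP6 KO against 0.634 ± 0.193 in WT (SD, n = 5 each, limma adjusted p = 0.99).

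**Figure D3:**
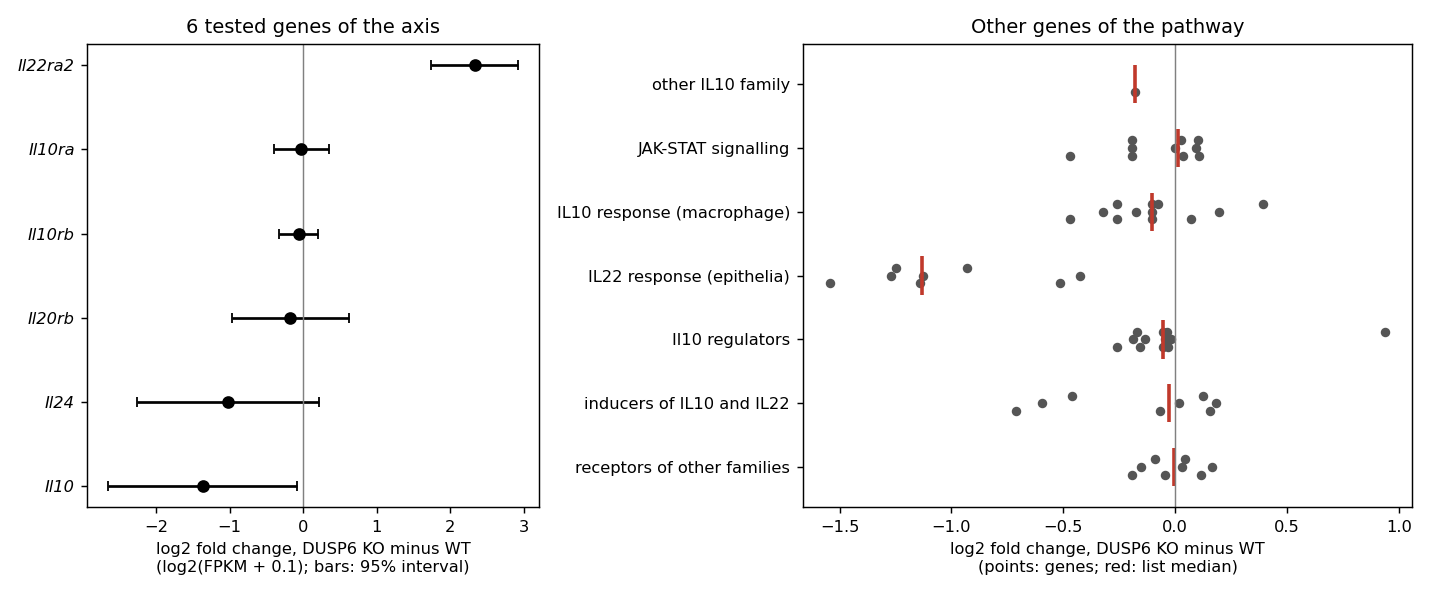
Log2 fold changes (DUSP6 KO minus WT, horizontal axes, on log2(FPKM + 0.1)) of the 6 tested genes of the axis with 95% confidence intervals (left) and of the tested genes of 7 pathway lists (right, 1 point per gene, red line at the list median). The interval of Il22ra2 (1.74 to 2.93) lies furthest from 0, that of Il10 runs from -2.65 to -0.08, and of the lists the IL22 response genes have the lowest median, at -1.13.

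None of the genes in the 7 pathway lists had an adjusted p of 0.05 or less, against 0.0704% of all genes tested, and the median log2 fold change of all genes tested was 0.00. The 10 genes of JAK-STAT signalling had a median of 0.01, with 5 higher and 5 lower. Jak1 was at 64.8 ± 4.32 FPKM in DUSP6 KO against 63.1 ± 3.43 in WT, and Stat3, the main transducer of IL10 and IL22, at 18.5 ± 2.55 and 21.1 ± 1.66 FPKM (SD, n = 5 each, limma adjusted p = 0.94). Socs3, a feedback inhibitor induced by STAT3, was at 11.3 ± 2.62 and 15.6 ± 3.27 FPKM, with an unadjusted limma p of 0.020 and an adjusted p of 0.77.

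The 12 IL10 response genes of macrophages, of which Socs3 is also one, had a median of -0.10, and 1 was higher and 1 lower at an unadjusted p under 0.05. Cd163, the haemoglobin scavenger receptor, was at 14.4 ± 3.03 FPKM in DUSP6 KO against 10.8 ± 0.64 in WT (SD, n = 5 each, limma adjusted p = 0.73). Hmox1, which encodes the haem-degrading enzyme, was at 448 ± 107 and 419 ± 56.2 FPKM (limma adjusted p = 0.99).

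Of the 14 IL22 response genes of epithelia, 8 passed the filter, all 8 had a negative log2 fold change, and 5 of them had an unadjusted p under 0.05 without passing the adjusted test. Of all genes tested, 51.0% had a negative log2 fold change and 5.66% an unadjusted p under 0.05. The median log2 fold change was -1.13, and -0.73 with 1 FPKM added in place of 0.1. S100a8 and S100a9, subunits of calprotectin, were at 267 ± 146 and 422 ± 209 FPKM in DUSP6 KO against 604 ± 388 and 960 ± 580 FPKM in WT (SD, n = 5 each, limma adjusted p = 0.79 and 0.75). Both are also neutrophil genes. The 8 neutrophil markers, these 2 included, likewise all had negative log2 fold changes, with a median of -1.14 and 6 at an unadjusted p under 0.05, and they summed to 546 to 1887 FPKM in DUSP6 KO against 1051 to 4922 FPKM in WT libraries. The neutrophil sum was highest in WT 77. Lcn2 and Hp, also among the 5 genes with an unadjusted limma p under 0.05, had their highest counts there, at 5945 and 2082 reads. The highest counts of S100a8 and S100a9 were in the same library, at 14512 and 16891 reads. The part of neutrophils in the levels of this list was not tested. Muc1, an epithelial mucin, was at 0.136 ± 0.056 and 0.795 ± 0.868 FPKM (limma adjusted p = 0.71), and 104 of its 200 reads came from WT 67. The antimicrobial lectin genes Reg3a, Reg3b and Reg3g, typical IL22 targets of the gut, had 11, 88 and 3 reads over all 10 libraries, of which 11, 86 and 3 came from WT 67, the library with the high pancreas markers. Reg3b alone of them passed the filter, at -1.27 on the log2 scale (limma adjusted p = 0.97).

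Regulators of Il10 transcription had a median of -0.05 over 12 genes. Of these, 1 was higher and 11 were lower in DUSP6 KO, where 51.0% of all genes tested were lower. The higher gene was Fos, an AP-1 subunit, at 4.47 ± 2.20 FPKM in DUSP6 KO against 2.08 ± 0.21 in WT (SD, n = 5 each). It had an unadjusted limma p of 0.0087 and an adjusted p of 0.62. Ets1 was at 66.7 ± 14.7 and 67.4 ± 10.9 FPKM (limma adjusted p = 0.997), and Creb1 at 7.32 ± 0.67 and 8.37 ± 0.90 FPKM (limma adjusted p = 0.94). Of 10 inducers of IL10 and IL22, 8 passed the filter and none had an unadjusted p under 0.05. Tgfb1 was at 58.1 ± 8.10 and 57.0 ± 3.32 FPKM, and Il1b at 17.4 ± 9.97 and 14.8 ± 3.60 FPKM, while Il6 and Il23a had 25 and 17 reads in all. Among 9 receptor chains of related cytokine families, 8 passed the filter, with a median of -0.01. Ifnar2, a type I interferon receptor chain, was at 21.7 ± 1.68 and 19.3 ± 0.996 FPKM (limma adjusted p = 0.86).

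Cell populations known as sources of the ligands were compared in the same way. The 10 markers of IL10-producing Tr1 T cells all had negative log2 fold changes, 2 of them at an unadjusted p under 0.05, where all genes tested had shares of 51.0% and 5.66%. Their sums overlapped between the groups, at 55.0 to 72.9 FPKM in DUSP6 KO against 62.3 to 81.9 FPKM in WT. Sums from whole spleen RNA cannot be read as a number of Tr1 cells. By flow cytometry of spleens at day 9, the authors counted more Tr1 cells in DUSP6 KO. Tigit and Lag3, inhibitory receptors of T cells, were at 4.62 ± 0.62 and 8.82 ± 1.61 FPKM in DUSP6 KO against 7.73 ± 2.70 and 11.4 ± 1.37 FPKM in WT (SD, n = 5 each, limma adjusted p = 0.58 and 0.77). The 6 markers of IL10-producing B cells summed to 427 to 1214 FPKM in DUSP6 KO against 493 to 971 FPKM in WT, but Cd24a alone, which other splenic cells also express, made up 76.9% and 71.8% of the group means. The highest sums were in DUSP6 KO 73 and WT 77, the libraries with the lowest B cell marker sums of their groups (616 and 697 FPKM), so the sum cannot be read as a level of these B cells. Of 9 markers of IL22-producing innate lymphoid and T helper 17 cells, 6 passed the filter, none with an unadjusted p under 0.05, and Il17a had 3 reads in all. Ccr6, a chemokine receptor of these cells and of B cells, was at 14.5 ± 3.69 and 13.3 ± 1.65 FPKM.

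Several of the genes lie in clusters with related genes, and neither of the 2 tested neighbours within 200 kb of Il22ra2 passed the test. Ifngr1, which encodes the ligand-binding chain of the interferon gamma receptor and ends 11.8 kb from Il22ra2, was at 66.3 ± 9.33 FPKM in DUSP6 KO against 64.6 ± 5.58 in WT (SD, n = 5 each). Its log2 fold change was 0.03 (95% confidence interval -0.20 to 0.26, limma adjusted p = 0.99). The other tested neighbour, the noncoding Gm33104, differed by 0.11 on the log2 scale (limma adjusted p = 0.99). Il22ra2 and Dusp6 are both on chromosome 10, 79.6 Mb apart, and Il22 is 18.9 Mb from Dusp6.

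Il10, Il19 and Il24 lie in the same cluster on chromosome 1. Of 14 genes within 200 kb of Il10, 10 passed the filter and none passed the test. Mapkapk2, a kinase of the p38 pathway 28.7 kb from Il10, was at 60.7 FPKM in DUSP6 KO against 57.9 FPKM in WT (log2 fold change 0.06, standard error 0.10). Fcmr, which encodes the IgM Fc receptor, had a log2 fold change of -0.46 and Pigr, the polymeric immunoglobulin receptor, one of -0.45, each with an interval that includes 0. Dyrk3 was at 0.25, Gm15848 at 0.32, Gm37084 at 0.17, Eif2d at 0.02 and Rassf5 at -0.06 on this scale, and Gm25549 rested on 11 reads. Near Il10rb, 10 genes were tested and none passed the test. The interferon receptor genes Ifnar1 and Ifngr2 had log2 fold changes of -0.09 and -0.15 there. Ifnar2, the closest tested gene at 0.575 kb, had one of 0.16, with an unadjusted limma p of 0.044 and an adjusted p of 0.86. It was the only one of the 10 with an unadjusted p under 0.05.

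**Figure D4:**
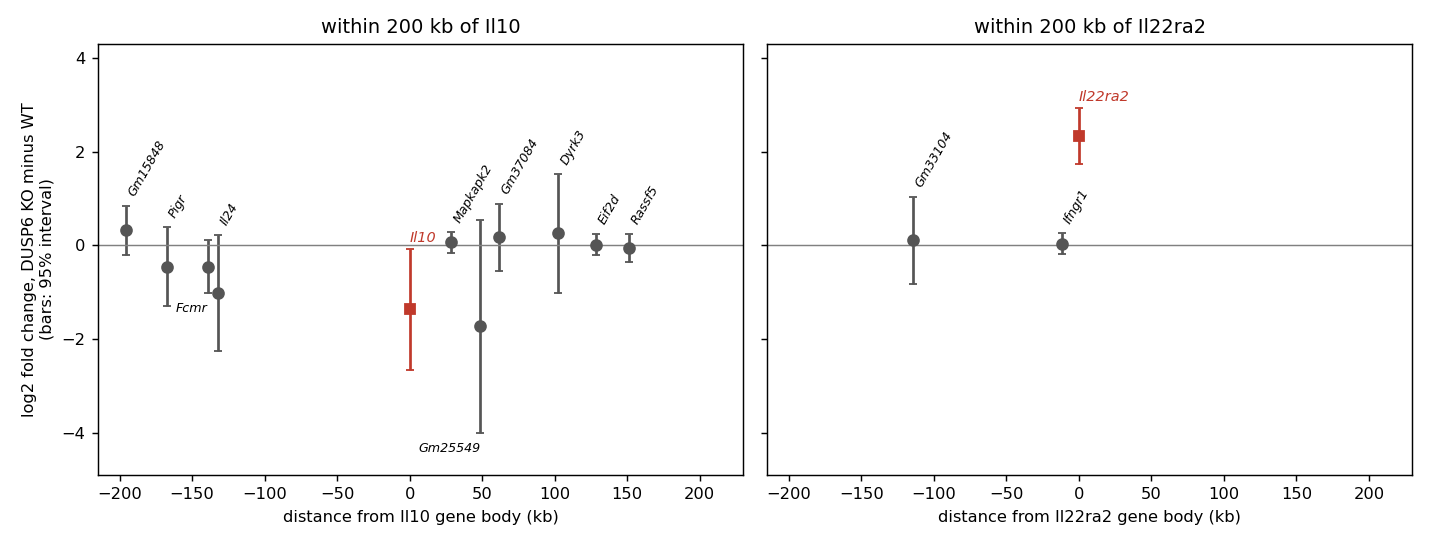
Log2 fold change (DUSP6 KO minus WT, vertical axis, with 95% confidence intervals) of the tested genes within 200 kb of Il10 (left) and Il22ra2 (right) against their distance from that gene's body in kb (horizontal axis, negative towards lower coordinates). Il22ra2 lies at 2.33 while Ifngr1, 11.8 kb away, lies at 0.03, and the interval of Il10 reaches -0.08 while those of its neighbours include 0.

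The genes whose level varied most like each tested member across the 10 libraries were found by Pearson correlation of log2(FPKM + 0.1) after the group means were taken away, among the 13421 or 13422 other genes that averaged 1 FPKM or more. These values are descriptive, since all genes of a library share its depth and composition. For Il22ra2 the highest were Eomes, a transcription factor of natural killer and T cells (r = 0.93), 9230112E08Rik (0.92) and Art2a-ps (0.92). For Il10 they were Rnft1 (0.92), Traj12 (0.92) and Gm25492 (0.89), for Il10ra they were Rab21 (0.98), Stk17b (0.97) and D16Ertd472e (0.97), and for Il10rb Klri2 (0.97), Psenen (0.97) and Selenow (0.96). Il24 varied most like Mob3c (0.99), Lyz2 (0.96), the lysozyme gene of macrophages and neutrophils, and Sulf1 (0.95), and Il20rb most like Gm2223 (0.93), Echdc1 (0.91) and Gm16580 (0.90).

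Promoter windows of 300 bases (250 before and 50 after the gene start, RefSeq, GRCm38.p6) were searched on both strands for 4 of the 9 genes, Il22, Il22ra1, Il19 and Il20rb. An AP-1 motif (TGANTCA) occurred 1 time in the window of Il22ra1 and in 7.81% of all 32851 windows. A STAT motif (TTCNNNGAA) occurred 1 time in that of Il19 and in 8.30% of all windows. The ETS motif CCGGAAG was in none of the 4 and in 8.86% of all windows.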

How the data were processed

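Hisat2 2.0.5 and featureCounts 1.5.0-p3 (the latter per the submitters' processing notes) gave a count per gene, from which the authors derived the deposited FPKM values, the only ones used here. The authors' own test was DESeq2. It called far more genes than the 15 called by limma here, so a gene that did not pass here may still differ. The notes name hg38, but the gene identifiers are of mouse, and 98.3% of 54495 genes had the coordinates of GENCODE release 21 (GRCm38), so positions are on GRCm38. Reads were recovered from FPKM times gene length, which rose in equal steps within each library (100% of values within 0.001 of a whole read). The depth of a library limits what its reads can show, and floors of 3 reads cover counting error only. The labels describe directional and non-directional libraries without saying which was made.

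Genes averaging 0.1 FPKM or more were tested on the log2(FPKM + 0.1) scale by limma 3.58.1 (R 4.3.3, moderated with a mean-variance trend), at a threshold of 0.05 on the adjusted p. The procedure was first run on simulated counts in which all genes had the same relative spread beyond counting error. That run does not show how the procedure performs on these data. Members with a read were also compared by exact permutation tests (scipy 1.17.1), and their transcripts were aligned with blastn 2.17.0 to those of other genes (at least 90% identity over 100 bases). Il10rb and Il22 had such a match and the other 7 had none. The 9 members, the 7 pathway lists and the 14 marker lists were chosen with earlier results of these data known. Of each list the genes past the threshold, or else the 2 with the lowest unadjusted p and the 2 with the highest mean FPKM, could be named, as could the tested genes within 200 kb of Il10 and Il22ra2 and the 3 genes most like each tested member. Il20ra, Gm20612, Mir7086, Gm21970, Reg3a, Reg3b, Reg3g, Lcn2, Hp, Il6, Il23a, Il17a, Ifnar1, Ifngr2 and undetected family members were named outside this rule. The result of 1 listed marker gene is not reported here. Alternatives are in the closing section. Figures were drawn with matplotlib 3.10.9.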

Additional observations from a re-analysis of the deposited data

Results flagged for a closer look

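In 44 groups of 5 values (levels of the members, marker sums and depth), 6 held a library whose gap to the nearest other exceeded 0.71 of the group's range, a limit that chance passes in about 1 in 20 groups. No level of a member was among them. The epithelial marker sum was highest in DUSP6 KO 26 (5.20 FPKM, next 3.57) and in WT 67 (8.68 FPKM, next 4.37). The exocrine pancreas sum was highest in DUSP6 KO 03 (0.452 FPKM, next 0.105) and in WT 67 (12668 FPKM, next 151). The plasma cell sum was lowest in DUSP6 KO 01 (482 FPKM, next 660), and the depth was highest in WT 67 (18422147 reads, next 16348136).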

How the results depend on the processing

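The log2 fold change of Il22ra2 kept its direction and an adjusted limma p of 0.05 or less in all 21 alternatives, at 1.92 (1 FPKM added) to 2.46, with adjusted p from 0.0048 to 0.040, and it was the only member called in each. The number of genes called was 11 to 16 under other settings and 10 to 34 when a library was left out, 34 of them without DUSP6 KO 21. In the fits Il10 (-2.24 to -0.43, lowest adjusted p 0.66), Il24 (-1.57 to -0.27) and Il20rb (-0.45 to -0.03) kept their direction wherever they were tested, which with a minimum of 1 FPKM they were not. Counts of pathway genes with an unadjusted p under 0.05 moved by at most 1 per list. The sign of Il10ra turned under quantile normalization (0.0013) and its log2 fold change was -0.11 to 0.077 when a library was left out. That of Il10rb was -0.12 to 0.030. In the permutation tests the difference of Il10ra was -0.21 FPKM, 0.035 FPKM after rescaling to the recovered reads (chosen after seeing the data) and 0.12 reads per 1000000 reads. With each library left out it was -10.9 to 13.4 on the latter scale for Il10ra, -5.46 to 0.53 for Il10rb, -0.59 to 0.0059 for Il20rb, -0.78 to -0.46 for Il10 and -0.56 to -0.23 for Il24. The cause of these sign changes was not tested. No setting moved the median of all genes by over 0.02. No paired analysis was possible because the groups share only 1 replicate number (73), which names different animals. Low read counts of Il10, Il24, Il20rb and Il22ra1 limit what could be seen.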
